A study of Homo sapiens with 6 samples.

Results

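The H/ACA small nucleolar RNAs (SNORA genes) and small Cajal body RNAs (SCARNA genes) were compared in OVCAR8, an established line of human ovarian cancer cells, between untreated cells and cells given relaxin-2, a peptide hormone related to insulin. Members were the genes whose symbol starts with SNORA or SCARNA followed by a digit and that held at least 20 reads, summed over the 6 libraries, in the merged count table. By this rule 57 of 58037 gene IDs were members, 42 SNORA and 15 SCARNA genes. The rule used the read total of both groups together, so which members are abundant follows from the choice. All cells were kept without serum for 16 hours before treatment. The untreated group (0 ng/mL) had 3 libraries, numbered 2 to 4 in the labels, and the relaxin-2 group (50 ng/mL of recombinant human hormone for 8 hours) had 3, numbered 1 to 3. Total RNA was sequenced with a stranded kit, and each library held 11939148 to 22426768 reads assigned to genes. Whether the triplicates came from separate cultures is not stated in the labels. The p-values thus rest on the spread among these libraries, which may be technical.

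H/ACA RNAs fold into hairpins joined by a hinge and end in a short tail. They pair with a target RNA and place one of its uridines in the active site of the pseudouridine synthase dyskerin (DKC1), which acts with NOP10, NHP2 and GAR1. SNORA RNAs work mainly on ribosomal RNA in the nucleolus, and SCARNA RNAs on spliceosomal small nuclear RNAs in the Cajal body. Most are cut from introns of host genes after splicing and carry no poly(A) tail.

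The sequences below are those of SNORA23, SNORA53 and SCARNA13, markers given for the group, and of SCARNA7 and SCARNA21. With SNORA74A, these markers had the smallest p of all members tested, so they are not typical of the group. SCARNA7 had the highest level per length. SCARNA21 was the one member whose treated libraries all lay above the untreated ones at an unadjusted p under 0.05. All come from GENCODE release 29 on GRCh38 and are written 5′ to 3′ on the transcribed strand. In the H/ACA members, capitals mark ANANNA (box H) where it lies between 30% and 65% of the length, and ACA starting within the last 8 bases. In SCARNA7, of which both ends are shown, they mark TGATGA (box C) in the first 15 bases and CTGA (box D) in the last 15.
SNORA23: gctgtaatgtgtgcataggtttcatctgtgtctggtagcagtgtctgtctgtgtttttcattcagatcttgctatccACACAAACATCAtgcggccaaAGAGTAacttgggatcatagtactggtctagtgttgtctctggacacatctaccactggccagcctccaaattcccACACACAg
SNORA53: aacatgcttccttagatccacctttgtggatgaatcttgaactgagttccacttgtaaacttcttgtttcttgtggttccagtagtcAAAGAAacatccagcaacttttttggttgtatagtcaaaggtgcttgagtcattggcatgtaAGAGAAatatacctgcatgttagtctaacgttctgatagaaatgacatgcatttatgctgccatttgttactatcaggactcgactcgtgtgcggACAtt
SCARNA13: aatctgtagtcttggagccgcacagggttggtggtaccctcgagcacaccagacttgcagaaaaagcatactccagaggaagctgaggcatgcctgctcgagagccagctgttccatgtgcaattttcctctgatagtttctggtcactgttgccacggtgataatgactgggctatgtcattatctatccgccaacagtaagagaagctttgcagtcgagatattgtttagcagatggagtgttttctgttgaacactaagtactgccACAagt
SCARNA7 bases 1 to 90: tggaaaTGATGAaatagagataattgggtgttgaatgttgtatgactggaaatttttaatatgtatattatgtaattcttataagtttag
SCARNA7 bases 241 to 330: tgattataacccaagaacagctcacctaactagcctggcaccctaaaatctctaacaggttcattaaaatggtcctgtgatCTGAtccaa
SCARNA21: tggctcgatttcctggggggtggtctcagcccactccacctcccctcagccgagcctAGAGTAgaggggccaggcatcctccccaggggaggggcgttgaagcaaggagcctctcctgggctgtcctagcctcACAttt
SNORA23 is on the plus strand at chr11:9428773-9428954 in the gene body of IPO7, which encodes a nuclear import receptor. SNORA53 is on the plus strand at chr12:98599635-98599883 in SLC25A3, the mitochondrial phosphate carrier gene, and 10.4% of its bases overlap an annotated exon of another gene. SCARNA13 is on the minus strand at chr14:95533355-95533629 in the noncoding gene SNHG10. SCARNA7 is on the minus strand at chr3:160514907-160515236 in KPNA4, an importin gene. SCARNA21 is on the plus strand at chr17:7906122-7906260 in CHD3, which encodes a chromatin remodeller.

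The label was checked against these sequence features, searched on the transcribed strand alone. ACA started within the last 8 bases of 41 of 42 SNORA members (97.6%) and 11 of 15 SCARNA members, against 5.04% of 278 annotated SNORD genes, which belong to the C/D class that guides ribose methylation. In the first 135 bases of 35116 RefSeq promoter windows it was found in 7.36%. ANANNA in the hinge window was found in 41 SNORA and 12 SCARNA members, against 33.5% of SNORD genes and 38.7% of promoter windows. Both features together were found in 40 SNORA members, 10 SCARNA members, 0.719% of SNORD genes and 3.64% of promoter windows. SNORA23 and SNORA53 each hold more than 1 match to ANANNA in the hinge window, and SCARNA13 holds none there. SCARNA13 is known as a tandem RNA with more hairpins than the usual pair.

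The members without the ACA tail were SNORA72, SCARNA5, SCARNA6, SCARNA7 and SCARNA9. TGATGA near the start with CTGA near the end was found in 3 SCARNA members, SCARNA5, SCARNA6 and SCARNA7, in 0 SNORA members and in 63.3% of SNORD genes. SCARNA5 and SCARNA6 are known as mixed C/D and H/ACA guides of the U5 small nuclear RNA, and SCARNA7 and SCARNA9 as C/D-type scaRNAs. The label H/ACA therefore fits the SNORA genes and most, but not all, of the SCARNA genes. Several members are close copies of one another. SNORA80A and SNORA80B shared 91.9% of aligned bases, SCARNA18 and SCARNA18B 88.1%, SNORA71C and SNORA71D 86.6%, and SNORA74A and SNORA74B 67.0%. Reads that map to several places were left out of the counts, so levels of such pairs are uncertain.

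The name pattern occurred in 129 Ensembl IDs. Of these, 10 had no counts in the merged table, 40 had 0 reads, 22 had 1 to 19 reads and 57 were members. Just inside the minimum were SNORA47 with 20 reads and SNORA70D and SNORA84 with 22 each. Just outside were SNORA59A with 17 and SCARNA11, SNORA15 and SNORA20 with 16 each. All 57 members lie in the body of another gene on the same strand, 48 of them in a protein-coding gene. A read over exons of several genes is set aside as ambiguous when counted. Of the members, 53 had no base under an exon of another gene on their strand. The 4 others were SNORA53, SCARNA9 with 42.2% of its bases covered, SNORA31 with 56.9% and SNORA84 with 65.4%. Of the 40 IDs at 0 reads, 39 were covered at least in part and 36 completely. The exception was SNORA35, and it and the members without the tail were named after their values were seen. Most genes of this class at 0 reads were thus ones whose reads the count rule could set aside in part or in full, and 0 says nothing of their level.

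**Figure D1:**
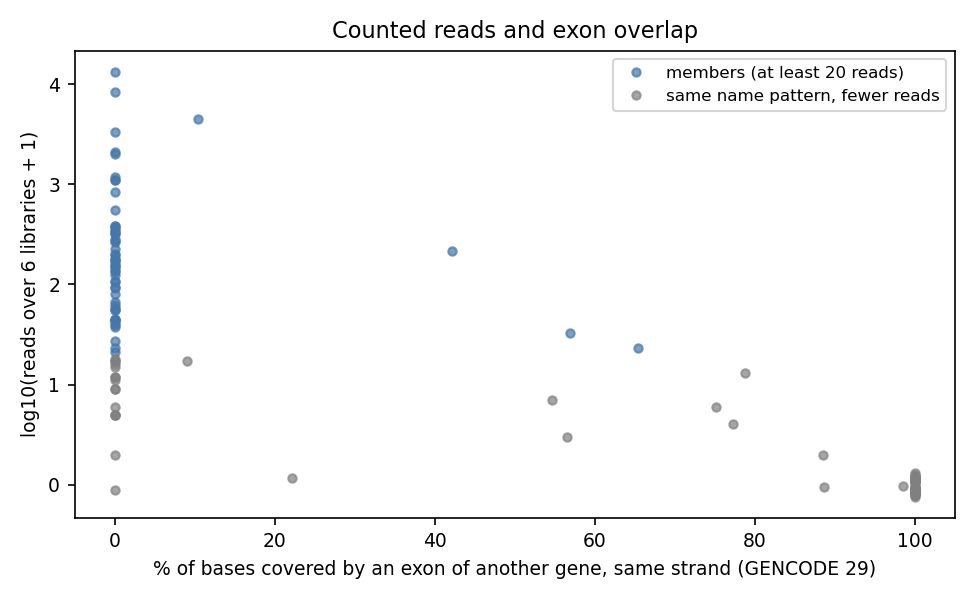
Reads over the 6 libraries, as log10(reads + 1), against the percentage of each gene's bases under an exon of another gene on the same strand, for the 119 IDs of the name pattern with counts. Points at 0 reads are spread vertically by a small random amount to make them visible. The 53 members without overlap stand on the left, and 36 IDs at 0 reads stand at full overlap on the right.

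Members held 45000 reads in all, against 71 on the opposite strand. Levels were compared between genes as CPM (reads as a share of the library's gene reads, scaled by TMM) per kilobase of transcript. SCARNA7 stood first at 348 CPM per kilobase and held 29.4% of all member reads. It was followed by SCARNA13 at 263, SNORA53 at 152, SNORA12 at 123 and SCARNA5 at 106. SNORA74A had 86.8 CPM per kilobase, SCARNA21 75.9, SNORA71A 55.3, SNORA23 52.0 and SNORA26 39.7. The median member had 9.54 CPM per kilobase, and the lowest, SNORA47, had 1.36. The first 4 members by reads held 65.2% of member reads. Lengths ran from 122 to 353 nucleotides with a median of 135, and 6 of the 10 highest levels per kilobase belonged to the 9 members of at least 180 nucleotides. The part of length in this order was not tested.

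The members held a smaller share of gene reads after relaxin-2. The share was 0.0464%, 0.0414% and 0.0438% in the untreated libraries and 0.0362%, 0.0326% and 0.0342% in the relaxin-2 libraries. Every relaxin-2 library lay below every untreated one. The share of the SNORA members went from 0.0169% ± 0.000103 (SD, n = 3) to 0.0122% ± 0.000742 (SD, n = 3). The SCARNA members went from 0.0270% ± 0.00245 to 0.0222% ± 0.00118 (SD, n = 3 each), again without overlap. These sums carry no test, because the members were chosen with results of these data known. In bulk RNA a smaller share of cells making an RNA and less of it per cell cannot be told apart.

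Another library measure also differed between the groups. Reads outside annotated exons of the counted strand made up 27.9%, 32.0% and 28.7% of input reads in the untreated libraries and 24.0%, 17.5% and 25.8% in the relaxin-2 libraries. All 3 relaxin-2 values were lower (exact permutation test, two-sided p = 0.1, the smallest that 20 assignments allow). Within the untreated group the members' share was lowest in library 3, where these reads were highest. Within the relaxin-2 group both were lowest in library 2. Reads mapping to several places made up 27.0% of relaxin-2 library 2 and 5.31% to 6.19% of the other libraries. Without the libraries numbered 2 in both groups, the difference in share was -0.00742 percentage points, against -0.00955 with all 6. The part of the other measures in the result was not tested.

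**Figure D2:**
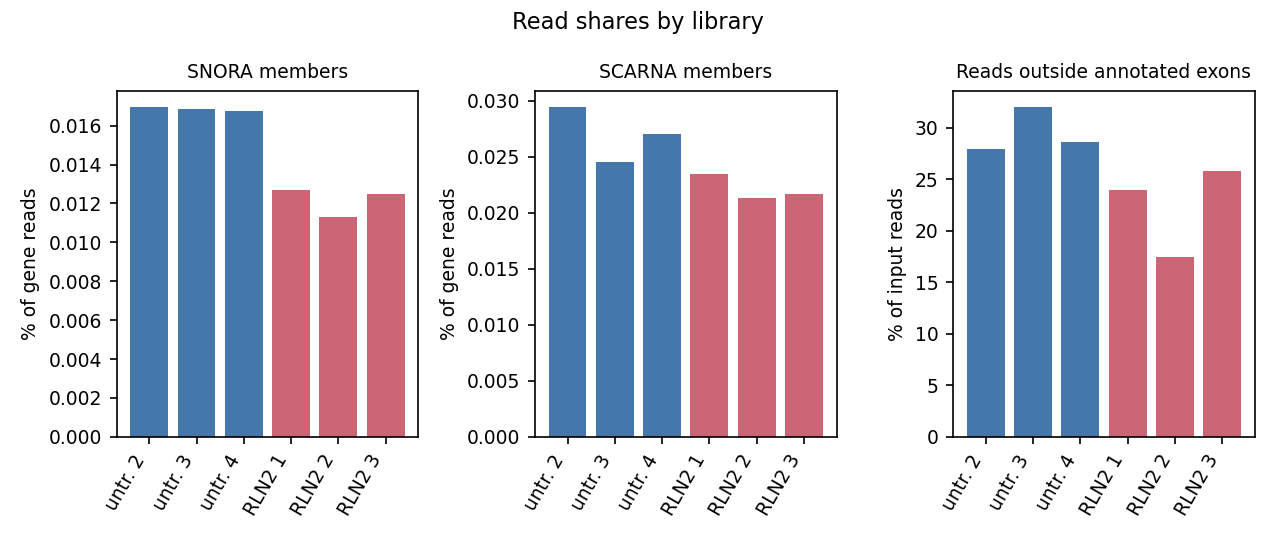
Share of gene reads held by SNORA members (left) and SCARNA members (middle), and share of input reads outside annotated exons (right), 1 bar per library, untreated in blue and relaxin-2 in red. In each panel the 3 relaxin-2 bars are lower than the 3 untreated bars.

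Gene by gene, 45 members (35 SNORA, 10 SCARNA) passed edgeR's filter on low counts and 12 did not. Fold changes are log2 of relaxin-2 over untreated, with the standard error of the fit. By edgeR's quasi-likelihood F test with Benjamini-Hochberg adjustment over 16740 genes, 0 members had an adjusted p under 0.05. The background was 0% of all genes tested, and the smallest adjusted p was 0.408. DESeq2 and limma-voom also called 0 members. At an unadjusted p under 0.05, edgeR counted 11 members lower and 1 higher, DESeq2 7 and 1 of 57 tested, and limma-voom 11 and 1. By direction alone 34 members were lower and 11 higher. The members' median was -0.23, against -0.015 over all genes, of which 52.2% were below 0. The 11 lower members are 24.4% of those tested, beside a background of 4.52% of genes lower at that level. The 1 higher member stands beside a background of 6.3%. Both backgrounds are from edgeR, and those of DESeq2 and limma-voom are not given here. The groups did not overlap in 13 members with lower values, 28.9% against a background of 10.5%, and in 1 with higher values, against 10.8%.

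**Figure D3:**
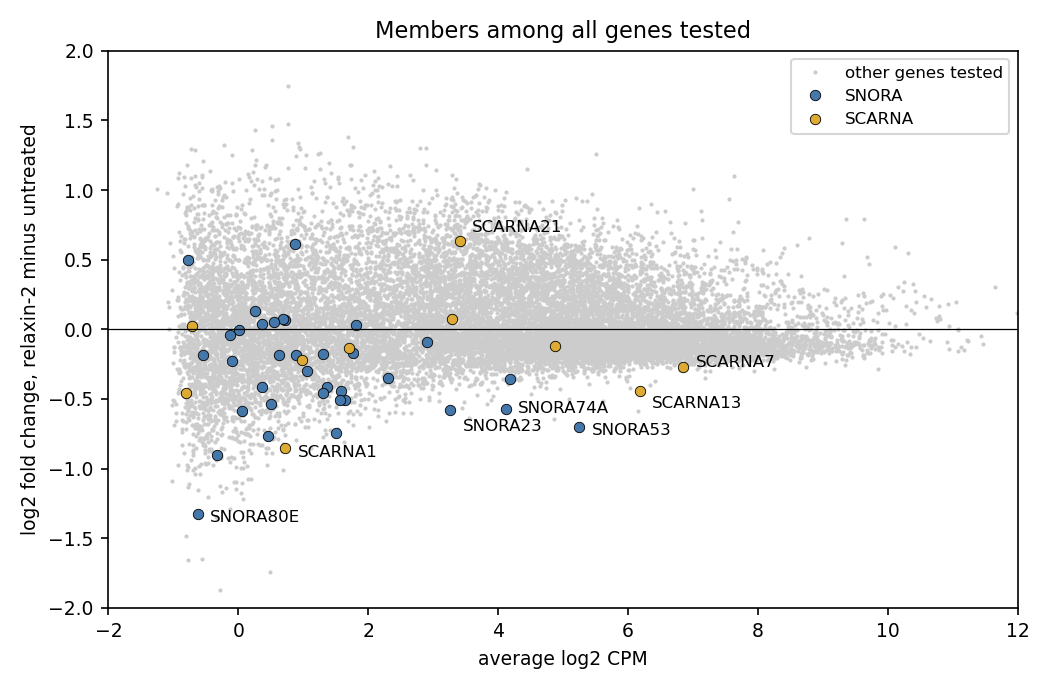
Log2 fold change (relaxin-2 minus untreated) against average log2 CPM for the 45 members tested (large points, SNORA blue, SCARNA yellow) and the other genes tested (grey, 9 of them outside the plotted range). Of the members, 34 lie below 0 and SCARNA21 is the highest.

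SNORA members had a median of -0.30, with 27 of 35 lower and 11 without overlap. SCARNA members had a median of -0.18, with 7 of 10 lower, 2 lower without overlap and 1 higher without overlap. Among the 9 members of at least 180 nucleotides, 8 were lower, the median was -0.44 and 4 did not overlap. Among the 36 shorter members 26 were lower, with a median of -0.19. The C/D snoRNAs with the same read minimum had 43 of 58 tested lower, a median of -0.20 and 11 lower without overlap (19.0%). Whether the SNORA and SCARNA genes differ from them was not tested. With all 57 members fitted under a filter of 20 reads, 43 were lower and 14 higher, the median was -0.30 and 0 were called.

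SNORA53 had 49.3, 46.1 and 45.0 CPM in the untreated libraries and 29.3, 22.2 and 34.5 after relaxin-2. The untreated libraries were close together and all above the relaxin-2 libraries, of which library 2 was lowest. The log2 fold change was -0.70 ± 0.15 (SE). It was the one member called under any alternative: with no filter on low counts its adjusted p by edgeR was 0.0206, where 0.37% of 32406 genes were called. Its adjusted p over all alternatives ran from 0.0206 to 0.766.

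SNORA74A had 20.9, 21.3 and 19.4 CPM in the untreated libraries and 13.9, 14.8 and 12.9 in the relaxin-2 libraries. The groups were apart by more than their spread, 20.5 ± 1.03 against 13.8 ± 0.973 (SD, n = 3 each). The log2 fold change was -0.57 ± 0.11 (SE). Its namesake SNORA74B, in ATP6V0E1, had -0.45 ± 0.34 and overlapping groups.

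SNORA23 was at 11.6, 11.2 and 11.2 CPM without the hormone and at 8.18, 7.58 and 7.0 with it. The untreated values differed by less than 1 CPM and all stood above the treated ones. The log2 fold change was -0.58 ± 0.12 (SE).

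SCARNA13 was at 80.5, 75.7 and 93.9 CPM without the hormone and at 56.3, 62.2 and 65.2 with it. The groups did not overlap, and the untreated libraries spread more widely. The log2 fold change was -0.44 ± 0.10 (SE). For SNORA53, SNORA74A, SNORA23 and SCARNA13 the adjusted p by edgeR was 0.408, the value shared by the genes with the smallest p. Among the members tested they had the smallest unadjusted p, so their values are not typical of the group.

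SNORA28, in the translation factor gene EIF5, had 3.74, 3.03 and 3.46 CPM untreated and 2.28, 2.18 and 1.68 after relaxin-2. The groups did not overlap, with a log2 fold change of -0.75 ± 0.19 (SE). SNORA22, in the pseudogene CCT6P1, had 1.53, 1.76 and 1.44 CPM untreated and 0.890, 0.871 and 1.00 after relaxin-2. These groups were also apart, with a log2 fold change of -0.76 ± 0.21 (SE). Both are members of low level, where each library holds few reads.

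The other members that were lower without overlap were SNORA12, SNORA26, SNORA38, SNORA65, SCARNA1, SNORA19 and SNORA80E, a list chosen by its values. Their log2 fold changes ran from -0.30 ± 0.18 (SE) in SNORA65 to -1.33 ± 0.42 in SNORA80E. SNORA80E is one of the lowest members tested, at 0.765, 0.746 and 0.750 CPM untreated and 0.334, 0.523 and 0.136 after relaxin-2. All untreated values were above all treated ones. SNORA12 had 24.3, 18.6 and 18.2 CPM untreated and 17.1, 14.4 and 16.0 after relaxin-2. Untreated library 2 was the highest, and the log2 fold change was -0.36 ± 0.15 (SE). It was -0.21 without that library and -0.14 without both libraries numbered 2. SNORA26, in the noncoding gene DANCR, had 5.54, 4.70 and 6.05 CPM untreated and 4.62, 4.27 and 3.91 after relaxin-2. Its groups were close at their edges, with a log2 fold change of -0.35 ± 0.16 (SE).

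SCARNA21 was the one member higher without overlap. It had 5.94, 9.26 and 9.63 CPM in the untreated libraries and 13.4, 12.6 and 12.5 after relaxin-2. Untreated library 2 was the lowest, and the relaxin-2 libraries were close together. The log2 fold change was 0.64 ± 0.19 (SE), with an adjusted p of 0.408 by edgeR. SCARNA21 had the highest GC content of all members, 64.0%. With each library's trend on GC content removed (an alternative chosen after seeing the data), its log2 fold change was 0.072, while SNORA53 stood at -0.51, SNORA74A at -0.55, SNORA23 at -0.50 and SCARNA13 at -0.39.

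Across the 45 members tested, log2 fold change went with GC content, with r = 0.57 and rho = 0.56. Across 16673 genes r was 0.72 and rho 0.74. These are descriptions over genes that share the same 6 libraries. With GC trends removed the members' median was -0.26 and 12 were lower without overlap (26.7%, against 6.28% of all genes). With trends on GC content and length removed, the median was -0.12 and 10 were lower without overlap (22.2%, against 6.56% of all genes). At an unadjusted p under 0.05 by edgeR 6 were lower, and the share of all genes at that level is not given for this setting. Under that setting SNORA53 was at -0.43, SNORA74A at -0.46, SNORA23 at -0.40 and SCARNA13 at -0.32. SNORA28 was at -0.47 and SNORA22 at -0.48. SNORA12 was at -0.095, SNORA26 at -0.12, SCARNA7 at -0.025 and SCARNA21 at 0.20.

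The other higher members overlapped between groups. SNORA5C, in TBRG4, had 0.855, 1.54 and 1.79 CPM untreated and 2.17, 1.48 and 2.50 after relaxin-2. Relaxin-2 library 2 fell within the untreated range, and the log2 fold change was 0.61 ± 0.31 (SE). SNORA37 had 0.49 ± 0.57, SNORA80A 0.13 ± 0.34, SNORA14B 0.077 ± 0.24 and SCARNA6 0.072 ± 0.14 (log2 fold changes with SE). Each of these 4 is within about 1 SE of 0. SNORA80A, SNORA14B and SCARNA6 changed sign under at least 1 alternative.

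SCARNA7, the guide of ribose methylation in the U1 small nuclear RNA, had 154, 106 and 117 CPM untreated and 118, 99.8 and 94.4 after relaxin-2. Relaxin-2 library 1 lay within the untreated range, and the log2 fold change was -0.27 ± 0.15 (SE). Untreated library 2 was the highest, and without it the log2 fold change was -0.098. It was -0.062 without both libraries numbered 2, -0.076 with GC trends removed and -0.025 with GC and length trends removed. SCARNA5 had 34.4, 30.4 and 27.0 CPM untreated and 29.5, 29.4 and 25.6 after relaxin-2. These overlapped, with a log2 fold change of -0.12 ± 0.12 (SE). SCARNA1 had 1.67, 1.89 and 2.42 CPM untreated and 1.22, 0.697 and 1.23 after relaxin-2. Its groups did not overlap, and the log2 fold change was -0.85 ± 0.26 (SE). The other SCARNA genes tested, SCARNA9, SCARNA18, SCARNA18B and SCARNA22, ran from -0.46 to 0.025 on the log2 scale, and all 4 overlapped.

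SNORA71A had 7.65, 7.59 and 7.61 CPM untreated and 7.96, 7.84 and 5.77 after relaxin-2. Only relaxin-2 library 3 stood apart, and the log2 fold change was -0.091 ± 0.16 (SE). SNORA71C and SNORA71D, from the same host SNHG17, were at -0.18 ± 0.21 and 0.033 ± 0.20. Among the 12 members outside the filter, 9 were lower and 3 higher in the fit with 20 reads as the minimum. SNORA79 had the smallest p among them, with a log2 fold change of -1.40 ± 0.43 (SE), an unadjusted p of 0.0104 and an adjusted p of 0.439 by edgeR.

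**Figure D4:**
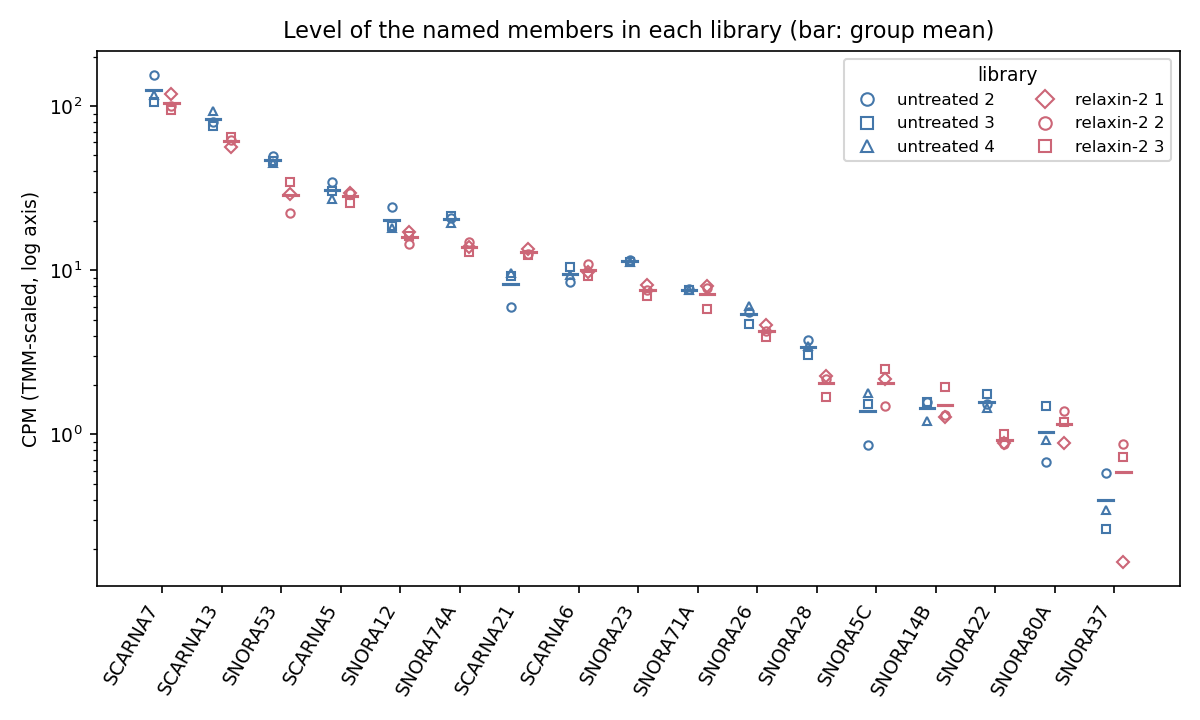
TMM-scaled CPM on a log axis for the named members, 1 symbol per library, untreated in blue and relaxin-2 in red, with a bar at each group's mean. SNORA53, SNORA74A and SNORA23 show separated groups, SCARNA21 is separated in the other direction, and SCARNA7 and SCARNA5 overlap.

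Because these RNAs are cut from introns, each of the 45 members was set beside its host gene in the same fit. Where several gene bodies held a member, protein-coding genes were taken first, then the smallest body. The 40 hosts had a median log2 fold change of -0.075, with 26 lower and 14 higher and 0 called. The member was below its host in 35 of 45 pairs, and the median difference was -0.21. Without the 2 pairs whose member overlaps an exon, 43 pairs gave the same median. Across pairs r was 0.32 and rho 0.35, as a description, since several members share a host and all share the libraries.

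The hosts of the members described above were mostly closer to 0 than the members. SLC25A3, host of SNORA53, had a log2 fold change of -0.13 ± 0.078 (SE), and IPO7, host of SNORA23, had -0.12 ± 0.11. SNHG10, host of SCARNA13, had -0.25 ± 0.13. Of the pairs with opposite signs, SNORA38 at -0.51 ± 0.16 and its host PRRC2A at 0.57 ± 0.26 were farthest apart, and for PRRC2A the untreated libraries spread widely. CHD3, host of SCARNA21, was at 0.28 ± 0.092, in the same direction as SCARNA21 at 0.64 ± 0.19. With GC trends removed SCARNA21 was at 0.072, and host values under that setting are not given here. For SNORA74A the host taken was MATR3 (ENSG00000280987), at -0.60 ± 0.20, but its reads are shared with a second annotated MATR3 entry and its value is uncertain. The noncoding gene SNHG4, whose body also holds SNORA74A, had -0.098 ± 0.11 and was not used in the pairs. SNORA74A, at -0.57, lay slightly above MATR3 and below SNHG4, so its place in the pairs depends on the host taken. Which of these genes it is cut from was not tested. ATG16L1, an autophagy gene, hosts both SCARNA5 at -0.12 ± 0.12 and SCARNA6 at 0.072 ± 0.14, and itself had 0.070 ± 0.10. Reads from unspliced host RNA can also be counted for a member, and their share was not tested.

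**Figure D5:**
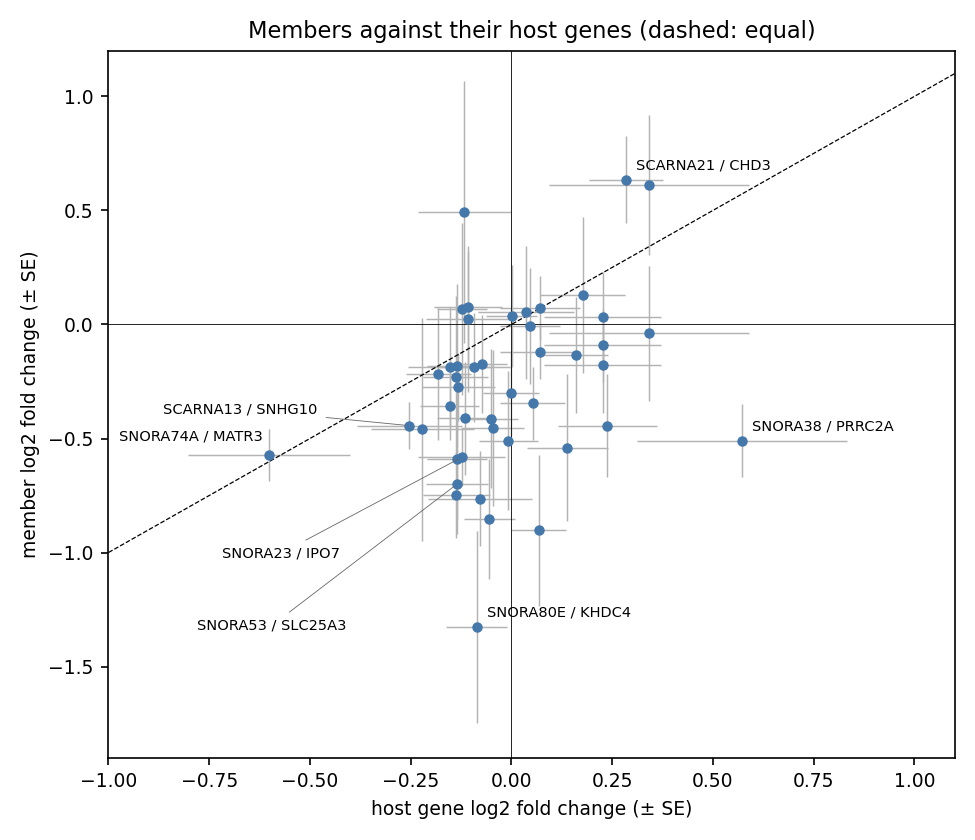
Log2 fold change of each of the 45 members against that of its host gene, with standard errors as grey lines and the line of equal change dashed. In 35 pairs the member lies below the dashed line, and SCARNA21 and CHD3 are both above 0.

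Genes of the machinery that builds and uses these RNAs, and of related processes, were read from lists. The lists were chosen with earlier results of these data known, and 0 of the listed genes were called. Their fold changes are from the main fit, without GC trends removed. Of the 4 H/ACA core proteins, 2 were higher and 2 lower. DKC1, the synthase, had 131 ± 10.4 CPM untreated and 129 ± 6.26 with the hormone, and its log2 fold change was -0.023 ± 0.079 (SE). NHP2 had 0.18 ± 0.12, the smallest p of the list. Of 8 genes listed as assembly factors, not all particular to H/ACA RNAs, 6 were lower. NOPCHAP1, which helps assemble snoRNA proteins, had -0.26 ± 0.089 and did not overlap between groups, and NUFIP1, another assembly factor, had -0.29 ± 0.12. Whether NOPCHAP1 acts on the H/ACA class was not checked. RUVBL2, a helicase-like ATPase of the same list named after its values were seen, was higher without overlap, at 0.56 ± 0.28.

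Of 11 genes of the Cajal body and of scaRNA handling, 6 were higher and 5 lower. GEMIN4, of the SMN complex, had a log2 fold change of 0.46 ± 0.18 (SE). Of 10 genes that trim or mature the 3′ end 7 were lower, and PARN, a deadenylase that trims H/ACA RNAs, had -0.12 ± 0.066. The 4 C/D core proteins split 2 and 2, with FBL at 0.21 ± 0.10. Of 12 stand-alone pseudouridine synthases 7 were higher, with PUSL1 at 0.92 ± 0.36. Of 14 RNA polymerase I genes 8 were lower, and UBTF, an activator of ribosomal RNA transcription, had 0.32 ± 0.11. The 8 genes of intron debranching and nonsense-mediated decay split 4 and 4, with SMG1 at -0.15 ± 0.074. TERC, the telomerase RNA and itself an H/ACA RNA, held 5 reads over the 6 libraries and was not tested. TERT had 0.73 ± 0.37.

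The labelled cell line was checked by its markers. KRT8, KRT18, PAX8 and EPCAM, epithelial and Müllerian genes, summed to 1362 to 2292 CPM in untreated and 2114 to 2548 CPM in relaxin-2 libraries. Fibroblast markers (DCN, LUM, PDGFRA, COL3A1) summed to 1.40 to 2.59 CPM against 1.31 to 2.34, with DCN at 0. Endothelial markers (PECAM1, VWF, CDH5, KDR) summed to 1.71 to 2.31 against 2.11 to 2.87. Blood markers (PTPRC, CD68, CD3E, HBB) summed to 0 to 2.31 against 0 to 0.174, with CD3E at 0.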

How the data were processed

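The deposited values are raw read counts per gene, which the authors made with STAR on hg38, per the submitters' processing notes. Neither the version of STAR nor the annotation release is given in the sources used here. Per the labels' protocols, TRIzol extracts were made into TruSeq Stranded Total RNA libraries. Each library has unstranded, forward and reverse count columns. The reverse column was used, and all 57 members had the same counts there as in the merged table the authors deposited. Reads not assigned to 1 gene entered neither library sizes nor tests.

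Counts were scaled by TMM, filtered with edgeR's default (minimum count 10) and tested two-sided by quasi-likelihood F tests in edgeR 4.0.16 and R 4.3.3 (Benjamini-Hochberg adjusted p under 0.05), all 6 libraries in 1 fit with treatment as the term. Length, exon overlap, hosts and sequences came from GENCODE 29. The sequence of SNORA74A is not reported here. DESeq2 1.42.0 and limma 3.58.1 (voom) were alternatives, with other scalings, filters and strands, small RNA genes removed, each library left out, the libraries numbered 2 left out, and the replicate block. Offsets for GC content and length (splines with 4 degrees of freedom) were added after seeing the data.

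Members named are SNORA74A, SNORA23, SNORA53 and SCARNA13, the 10 highest per kilobase, the 6 smallest p in each direction, every SCARNA gene tested, those at the read minimum, and the gene with the smallest p of each list. Others were chosen after their values were seen. Members and lists were chosen with earlier results of these data known. Depth limits precision: the median SE of a member's log2 fold change was 0.25, and for members with a mean of at least 5 CPM it was 0.14.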

Additional observations from a re-analysis of the deposited data

How the results depend on the processing

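The share of gene reads held by members (-0.00955 percentage points) kept its direction under each alternative run for it. It moved by less than the spread between replicates. For the median difference from hosts (-0.21), the only alternative left out the members that overlap an exon, and the median was the same. Few pairs are left out there, so it says little about how stable the difference is. Neither value was run with the offsets for GC content or length. The count of called members was 0 under every alternative except no filter on low counts, where it was 1 (SNORA53). Pathway genes called stayed at 0 throughout. Members lower at an unadjusted p under 0.05 (11) numbered 7 with DESeq2 and 6 with GC and length offsets, and from 8 to 13 with 1 library left out. Members higher (1) numbered 2 with no filter, 0 under both kinds of offset, and 1 to 2 with 1 library left out. No all-gene background at that p is given for these settings. Members lower without overlap (13) numbered 14 to 20 with 1 library left out, 20 being without relaxin-2 library 1. With 3 libraries against 2, groups separate more often: without that library 41.7% of members and 22.4% of all genes were lower without overlap, and with all 6 libraries 28.9% and 10.5%. The higher count is thus no result about the members. Members higher without overlap (1) numbered 1 to 2 with 1 library left out, 3 without both libraries numbered 2, and 0 under both offsets.

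The members' median (-0.23) was -0.30 with no filter and with a minimum of 20 reads, -0.31 with DESeq2, -0.27 without both libraries numbered 2, -0.12 with GC and length offsets, and from -0.30 to -0.24 with 1 library left out. The first 3 settings test all 57 members. For the offsets the cause was not tested.

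With the replicate number as a block, the median was -0.27 and 0 members were called. At an unadjusted p under 0.05 by edgeR, 8 were lower and 1 higher. The numbers 1 and 4 each mark a single library, so in that fit the treatment effect rests on the libraries numbered 2 and 3. No all-gene background is given for these counts. Deviations from the group means correlated at 0.42 between the libraries numbered 3 and at -0.63 between those numbered 2, over 10059 genes. The numbers thus did not pair the libraries throughout, and the labels do not say that a number marks a shared culture, so the pairing was not used.

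Small changes that reversed were these. With 1 library left out, SCARNA18B (0.025) ran from -0.13 to 0.12, SCARNA22 (-0.13) from -0.28 to 0.077, SCARNA6 (0.072) from -0.0086 to 0.15, SCARNA9 (-0.22) from -0.45 to 0.065, SNORA14B (0.077) from -0.18 to 0.20, SNORA71A (-0.091) from -0.18 to 0.052 and SNORA80A (0.13) from -0.13 to 0.52. The libraries whose removal changed the sign were untreated 2 (SCARNA6, SCARNA9, SNORA80A), untreated 3 (SCARNA18B, -0.13), untreated 4 (SNORA14B, -0.027), relaxin-2 library 2 (SCARNA18B, -0.070, and SCARNA22) and relaxin-2 library 3 (SNORA14B and SNORA71A). Without both libraries numbered 2, SCARNA6 was -0.059, SCARNA9 0.12 and SNORA80A -0.23. With GC offsets SCARNA6 was -0.062 and SNORA80A -0.11, with GC and length offsets SCARNA9 was 0.012, and by library size alone SCARNA18B was -0.0012. For these the cause was not tested beyond the library left out. With 3 libraries per group and most members under 5 CPM, single-member differences near 0.25 on the log2 scale are within about 1 SE.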
